A study of Kandelia obovata with 24 samples.

Results

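DN7698_c0_g1 and DN8109_c0_g1 are the 2 hub unigenes of the co-expression module MEbrown whose annotation places their products simply in the membrane, the first as an anchored component of the plasma membrane and the second as an integral component of membrane. A unigene is an assembled transcript that stands for a gene where no genome annotation was used. They are 2 of 33344 unigenes in the table and 2 of 12 hub unigenes that the study annotated. They were chosen by measured values of these same libraries: candidates came from differences between sprayed and control leaves under freezing, and hubs were picked for how closely they followed their module over the libraries. Values of the freezing stages are therefore given as a description, without a test.

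The libraries were made from leaves of the mangrove Kandelia obovata. In ABA-100, seedlings were sprayed with 100 mg/L abscisic acid, and CK were the control seedlings, at 0 mg/L. The paper lists 0 mg/L among the concentrations set for treatment. It does not state outright whether CK received the solvent. Leaves were taken at 4 stages of a natural frost, named by air temperature as 10.2 ℃ (before the frost), -4.1 ℃, -5.3 ℃ and 9.7 ℃ (recovery), with 3 libraries in each of 8 groups and 24 in all. By the sampling scheme and the titles, ABA-100 (10.2 ℃) leaves were collected before the spray, and if so a difference from CK (10.2 ℃) is not an effect of it. Leaves of different stages came from the same seedlings, but the labels do not say which. The genotype field reads wild type for CK and experiment type for ABA-100, with no other allele named.

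The plasma membrane is widely held to be a main site of freezing injury in plants, because ice outside the cell draws water out and the membrane must stay intact while the cell shrinks. Anchored proteins of the plasma membrane are held on one face of the bilayer, in plants commonly by a glycosylphosphatidylinositol (GPI) lipid, whereas integral proteins cross or are embedded in the bilayer and include carriers, channels and receptors. Abscisic acid (ABA) is the hormone through which plants respond to water deficit and cold, and it changes the transcription of many genes. The annotation gives neither unigene a more specific function.

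Levels are in TPM, each unigene's share of the transcripts corrected for length and library size, so levels can be compared between unigenes. Between 25523 and 27061 unigenes were above 0 TPM in a library. The table holds no read counts, so the reads behind a value cannot be given. In each group the closest 2 libraries were found by the spread of log2 ratios over 2315 unigenes of moderate level. Any 3 libraries hold a closest pair, so only the size of the gap to the third is informative. The spread was 0.0551 to 0.0676 within the closest pairs and 0.0786 to 0.189 between the third library and either of them. The library apart was replicate 3 in 7 groups and replicate 1 in ABA-100 (9.7 ℃). The gap was widest in CK (-4.1 ℃) and in ABA-100 (9.7 ℃), 2.89 times the spread of the pair in each. It was smallest in ABA-100 (10.2 ℃), at 1.235 times. Whether the closest pairs came from separate leaves was not tested, and each test below was repeated with each pair averaged into 1 sample. The letter in the library codes pairs stages differently from the titles, in that CK (10.2 ℃) shares its letter with CK (-4.1 ℃) and CK (-5.3 ℃) with CK (9.7 ℃), and likewise in ABA-100, while a digit, 0 or 4, separates the 2 stages of a letter. The meaning of the codes is not given in the sources used here. Groups are used as titled, and whether the titles give the right stage, including that of the leaves titled as taken before the spray, was not tested. No leaf marker could be checked, because the table gives no gene names.

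DN7698_c0_g1, the anchored plasma membrane component, was detected strongly in all libraries, between 23.3 and 114 TPM with a median of 55.8 TPM, above 90.3% of the detected unigenes in the median library. In ABA-100 leaves it had 24.2, 25.9 and 23.3 TPM at 10.2 ℃, against 66.1, 64.8 and 102 TPM in CK leaves. The ABA-100 (10.2 ℃) libraries were the lowest of the 24 and overlapped no other group. At -4.1 ℃ it had 53.9, 55.0 and 54.4 TPM in ABA-100, against 56.7, 49.5 and 106 TPM in CK. These groups overlapped, and in CK replicate 3 alone stood high. At -5.3 ℃ the values were 46.1, 45.5 and 42.4 TPM in ABA-100, against 114, 109 and 101 TPM in CK, with every CK library above every ABA-100 library. At 9.7 ℃ the values were 75.4, 60.0 and 61.6 TPM in ABA-100, against 46.6, 45.4 and 56.7 TPM in CK. Here each ABA-100 library lay above each CK library.

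DN8109_c0_g1, the integral component of membrane, was expressed at a much lower level, between 0.58 and 12.2 TPM with a median of 2.42 TPM. It exceeded 10 TPM in 1 library, CK (-4.1 ℃) replicate 3, and 1 TPM in 22 libraries. The paper states that genes with low expression, below 10 TPM, were left out of its network. How that filter was applied to a unigene this low is not given. At 10.2 ℃ it had 0.58, 0.98 and 1.07 TPM in ABA-100, against 1.35, 1.42 and 3.85 TPM in CK. ABA-100 (10.2 ℃) was again the lowest group and overlapped no other. At -4.1 ℃ the values were 3.08, 2.58 and 2.80 TPM in ABA-100, against 2.65, 2.51 and 12.2 TPM in CK. The groups overlapped, and the high CK value was the library that was also high for DN7698_c0_g1. At -5.3 ℃ it had 2.10, 2.33 and 2.05 TPM in ABA-100, against 6.68, 6.96 and 4.93 TPM in CK, with no overlap. At 9.7 ℃ it had 2.50, 1.54 and 1.5 TPM in ABA-100, against 1.70, 1.75 and 4.33 TPM in CK, and the groups overlapped.

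**Figure D1:**
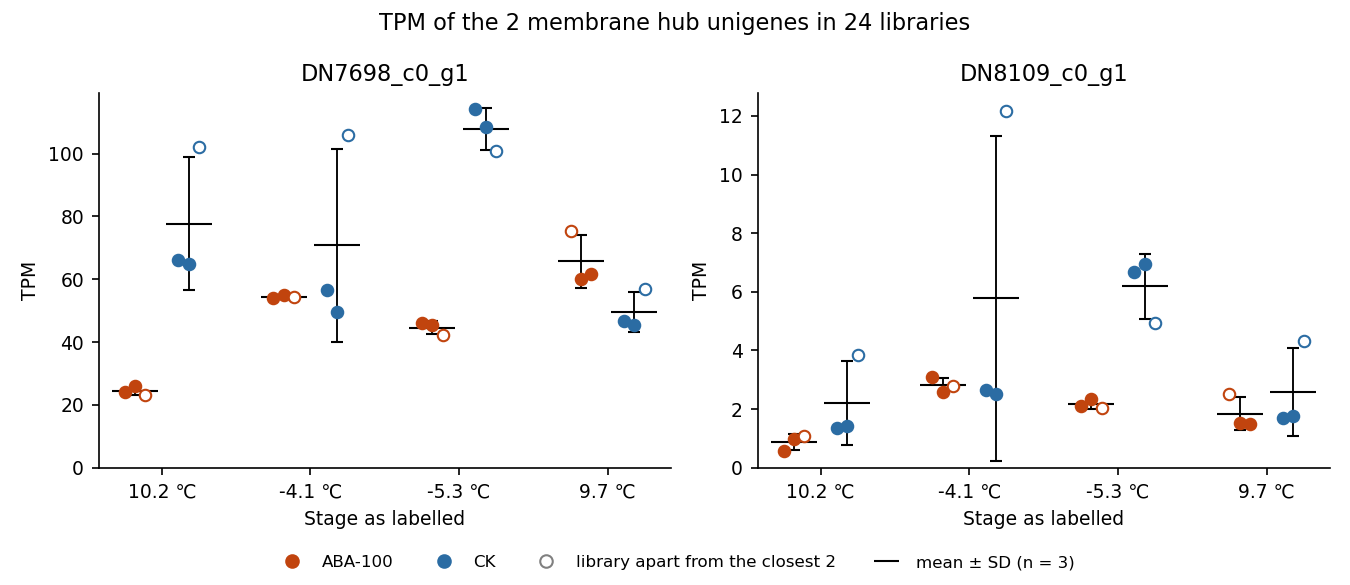
TPM of DN7698_c0_g1 and DN8109_c0_g1 in each of the 24 libraries, ABA-100 left of CK at each stage, with the group mean and SD (n = 3). For both unigenes ABA-100 (10.2 ℃) lies below every other group, and CK (-5.3 ℃) has the highest mean.

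By group mean, DN7698_c0_g1 was ordered CK (-5.3 ℃) at 108 ± 6.75 TPM, CK (10.2 ℃) at 77.7 ± 21.2, CK (-4.1 ℃) at 70.7 ± 30.8, ABA-100 (9.7 ℃) at 65.7 ± 8.50, ABA-100 (-4.1 ℃) at 54.4 ± 0.560, CK (9.7 ℃) at 49.6 ± 6.24, ABA-100 (-5.3 ℃) at 44.6 ± 1.99 and ABA-100 (10.2 ℃) at 24.4 ± 1.32 (SD, n = 3 each). Neighbours in this order overlapped, except that ABA-100 (9.7 ℃) stood above ABA-100 (-4.1 ℃), and ABA-100 (-5.3 ℃) above ABA-100 (10.2 ℃). The highest group mean was 4.41 times the lowest. DN8109_c0_g1 had its highest means in CK (-5.3 ℃) at 6.19 ± 1.10 TPM and CK (-4.1 ℃) at 5.78 ± 5.54 TPM, and its lowest in ABA-100 (10.2 ℃) at 0.877 ± 0.261 TPM (SD, n = 3 each). The other 5 groups lay between 1.85 and 2.82 TPM, and neighbours in the order overlapped except that ABA-100 (9.7 ℃) stood above ABA-100 (10.2 ℃). Its highest group mean was 7.06 times the lowest. Both unigenes thus shared the highest and the lowest group, while the order between them differed, with CK (10.2 ℃) next to the highest for DN7698_c0_g1 and in the lower part for DN8109_c0_g1.

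The difference between ABA-100 and CK was tested at 10.2 ℃ and 9.7 ℃, stages that played no part in choosing candidates under freezing. All libraries entered the network from which the hubs were picked. The p-values from these stages, for all hubs below, are therefore not independent of that choice. A unigene was called at a limma adjusted p of at most 0.05 and an absolute log2 fold change, on log2(TPM + 1), above 1. At 10.2 ℃ DN7698_c0_g1 was lower in ABA-100 by a log2 fold change of -1.60 (SE 0.20, adjusted p = 4.52e-06), and the ABA-100 mean was 0.315 times the CK mean. DN8109_c0_g1, at a log2 fold change of -0.70 (SE 0.39, adjusted p = 0.177), did not pass. Its ABA-100 mean was 0.397 times its CK mean, and at such low levels the added 1 TPM shrinks the log2 fold change. With 0.1 TPM added instead, the log2 fold change of DN8109_c0_g1 was -1.11 (adjusted p = 0.0848 by limma), still not called. All of its ABA-100 libraries lay below all of its CK libraries. How many of all tested unigenes were likewise without overlap was not counted, so separation of libraries is a description throughout. In this contrast 4.94% of the 21523 tested unigenes were called, 1.61% lower and 3.33% higher in ABA-100, and the median unigene had a log2 fold change of -0.14. The call of DN7698_c0_g1 was thus in the less common direction among called unigenes, in libraries titled as taken before the spray. Over all tested unigenes, called or not, 66.7% had a log2 fold change below 0 in this contrast. In leaf RNA, fewer cells of a type and less RNA per cell cannot be told apart. With each closest pair averaged, the log2 fold change of DN7698_c0_g1 was -1.72 (adjusted p = 0.00185).

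At 9.7 ℃ neither unigene was called. The log2 fold change of DN7698_c0_g1 was 0.40 (SE 0.20, adjusted p = 0.169), with the ABA-100 mean 1.32 times the CK mean and no overlap between the libraries. DN8109_c0_g1 had -0.28 (SE 0.39, adjusted p = 0.675), and its groups overlapped. Called unigenes made up 4.01% of those tested, with 3.59% higher in ABA-100. At the freezing stages, which the rule used, the differences are described only. At -4.1 ℃ the log2 fold change was -0.29 (SE 0.20) for DN7698_c0_g1 and -0.53 (SE 0.39) for DN8109_c0_g1, with overlapping libraries for both. At -5.3 ℃ it was -1.25 (SE 0.20) for DN7698_c0_g1 and -1.18 (SE 0.39) for DN8109_c0_g1, and the ABA-100 means were 0.414 and 0.349 times the CK means. The 2 unigenes were lower in ABA-100 by similar amounts at -5.3 ℃, and the median unigene at that stage had -0.15.

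**Figure D2:**
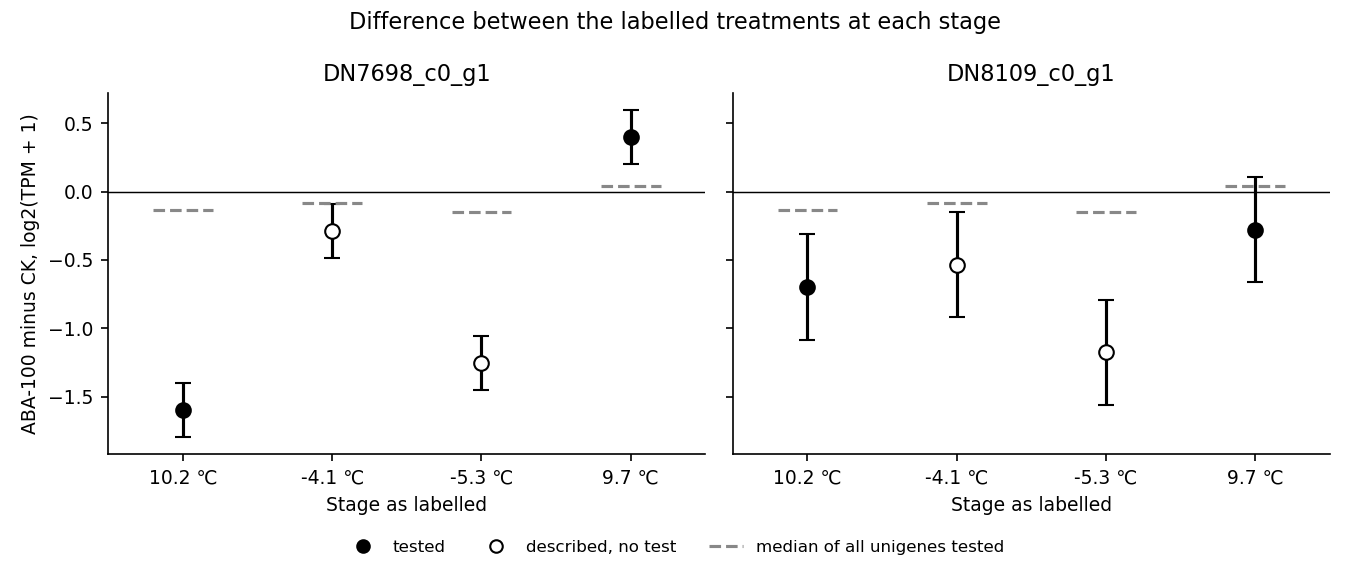
Log2 fold change of ABA-100 over CK on log2(TPM + 1) for DN7698_c0_g1 and DN8109_c0_g1 at the 4 stages, with bars for the SE of the fit, filled points for tested and open points for described stages, and a dashed line at the median of all tested unigenes. DN7698_c0_g1 goes to -1.60 at 10.2 ℃ and -1.25 at -5.3 ℃ and lies above 0 only at 9.7 ℃, and DN8109_c0_g1 lies below 0 at all 4 stages.

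Recovery was compared with the pre-frost stage within each treatment. In ABA-100, DN7698_c0_g1 was higher at 9.7 ℃ than at 10.2 ℃ by a log2 fold change of 1.38 (SE 0.20, adjusted p = 6.22e-05), or 2.69 times the mean at 10.2 ℃. DN8109_c0_g1 had 0.59 (SE 0.39, adjusted p = 0.277), with a mean 2.11 times that at 10.2 ℃, and was not called. Each of its libraries at 9.7 ℃ exceeded each at 10.2 ℃, which is a description only. In this contrast 2.67% of the tested unigenes were called, 1.77% of them being higher at 9.7 ℃ as a share of all tested, and the median unigene had 0.16. In CK, the log2 fold change of DN7698_c0_g1 was -0.61 (SE 0.20, adjusted p = 0.0581), with all libraries at 9.7 ℃ below all at 10.2 ℃ and a mean 0.638 times as high, and was not called. DN8109_c0_g1 had 0.17 (SE 0.39, adjusted p = 0.851) with overlapping libraries, and 0.994% of unigenes were called.

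By the sampling scheme and the titles, leaves at 10.2 ℃ preceded the spray, so a change from that stage is not read as a response to it. The difference between ABA-100 and CK in DN7698_c0_g1 itself changed between 10.2 ℃ and 9.7 ℃. Its difference at 9.7 ℃ less that at 10.2 ℃ was 1.996 on the log2 scale (SE 0.28, adjusted p = 8.15e-05 by limma's interaction term), and the unigene was called. For DN8109_c0_g1 the same term was 0.42 (SE 0.55, adjusted p = 0.624), and it was 0.08 without CK (10.2 ℃) replicate 3 and 0.74 without CK (9.7 ℃) replicate 3. Of the tested unigenes 4.54% were called for this term, 3.28% with a higher value at 9.7 ℃, and the median unigene had 0.20. These contrasts share libraries: the low ABA-100 (10.2 ℃) values of DN7698_c0_g1 enter its difference from CK at 10.2 ℃, the change within ABA-100 and the interaction. With the closest pairs averaged, the change within ABA-100 was 1.45 (adjusted p = 0.0105) and the interaction 2.12 (adjusted p = 0.0144).

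The course over the frost is given as a description. In ABA-100 both unigenes were higher at -4.1 ℃ than at 10.2 ℃, without overlap, by a log2 fold change of 1.13 for DN7698_c0_g1 and 1.03 for DN8109_c0_g1. In mean TPM the rise was larger for DN8109_c0_g1, at 3.22 times, than for DN7698_c0_g1, at 2.23 times. The 1 TPM added before taking logs shrinks the log2 fold change more for DN8109_c0_g1, whose levels were low. Both unigenes were also higher at -5.3 ℃ than at 10.2 ℃ without overlap, by 0.84 and 0.76, or 1.83 and 2.46 times in mean TPM. Both lay slightly lower at -5.3 ℃ than at -4.1 ℃, by -0.28 and -0.27, again without overlap. They parted at 9.7 ℃, where DN7698_c0_g1 stood above its -5.3 ℃ level by 0.54 without overlap and DN8109_c0_g1 overlapped its -5.3 ℃ level, at -0.17. In CK the libraries at -4.1 ℃ and 10.2 ℃ overlapped for both unigenes. At -5.3 ℃ DN8109_c0_g1 was 2.81 times its 10.2 ℃ mean without overlap, a log2 fold change of 1.24, while DN7698_c0_g1 had 0.50 and overlapped. Both were lower at 9.7 ℃ than at -5.3 ℃ in every CK library, by -1.11 for DN7698_c0_g1 and -1.07 for DN8109_c0_g1.

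The sources of variation also differed between the 2 unigenes. For DN7698_c0_g1 the interaction of treatment and stage held 41.1% of the sum of squares of log2(TPM + 1), treatment 31.1%, stage 15.7% and the spread within groups 12.1%. For DN8109_c0_g1 stage held 35.9%, the spread within groups 35.1%, treatment 23.4% and the interaction 5.57%. The median unigene had 36.0% within groups, so DN8109_c0_g1 was about typical and DN7698_c0_g1 varied mainly between groups. The SD within groups was 0.26 for DN7698_c0_g1, above that of 65.2% of unigenes, and 0.50 for DN8109_c0_g1, above 83.3%. The SE of a difference between groups was accordingly larger for DN8109_c0_g1, at 0.39, than for DN7698_c0_g1, at 0.20. The spread was uneven between groups. It was widest for both in CK (-4.1 ℃), where replicate 3 stood high, with an SD of 1.09 for DN8109_c0_g1 and 0.58 for DN7698_c0_g1. In ABA-100 (-5.3 ℃) the SD was 0.067 and 0.064. CK (-4.1 ℃) is in no tested contrast, but its spread enters the SE of each, because 1 fit covers all groups.

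The 2 unigenes followed each other over the 24 libraries with a Pearson r of 0.80 and a Spearman rho of 0.63. Both were in one module by the rule, and the libraries share groups and a common scaling, so this is a description. As many as 741 of 21522 unigenes were closer to DN7698_c0_g1 than DN8109_c0_g1 was, and 185 were closer to DN8109_c0_g1 than DN7698_c0_g1 was. Deviations from the group means gave a higher r of 0.95 and a rho of 0.88, with 7 and 9 unigenes closer. Much of this came from the libraries that stood apart: CK (10.2 ℃) replicate 3, CK (-4.1 ℃) replicate 3, CK (9.7 ℃) replicate 3 and ABA-100 (9.7 ℃) replicate 1 were each the highest of their group for both unigenes. Without CK (-4.1 ℃) replicate 3 the r of the deviations was 0.88 over 23 libraries, and over the 16 libraries of the closest pairs it was 0.29. Over the 8 group means r was 0.80 and rho 0.55.

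**Figure D3:**
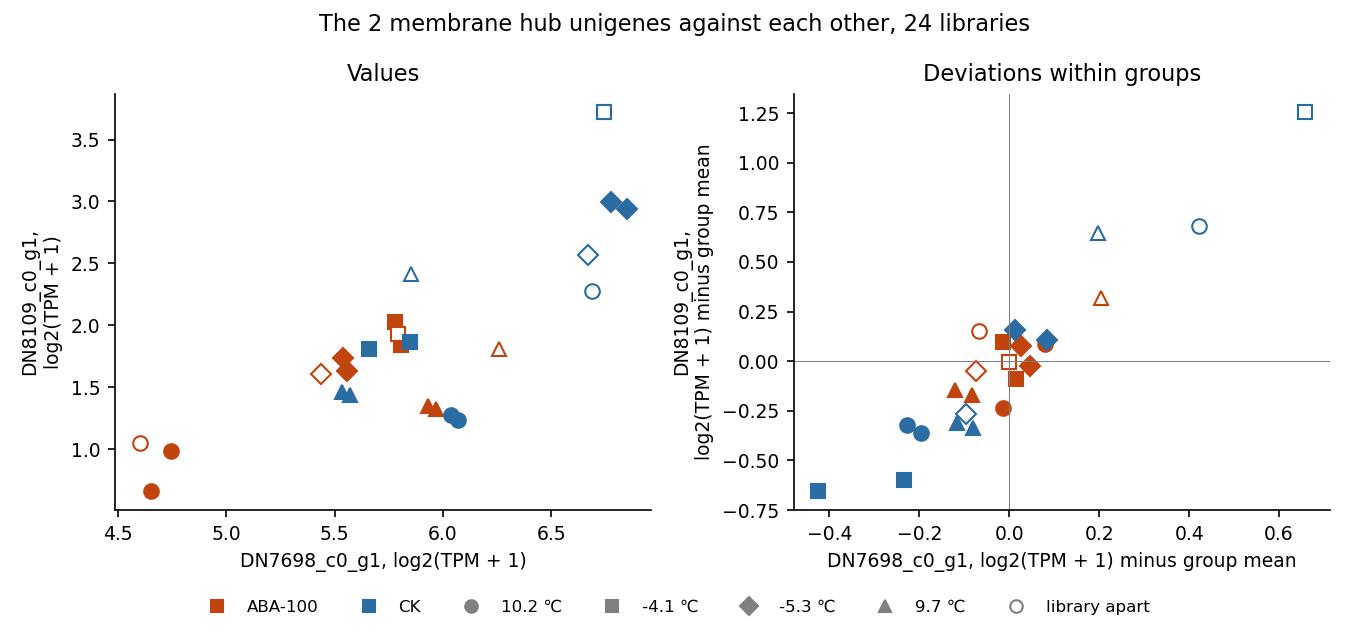
DN8109_c0_g1 against DN7698_c0_g1 in 24 libraries, as log2(TPM + 1) on the left and as deviations from the group mean on the right, with colour for treatment, shape for stage and open symbols for the library apart in each group. On the right, 4 open symbols at upper right carry most of the joint spread, and CK (-4.1 ℃) replicate 3 lies farthest out.

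The ratio of DN7698_c0_g1 to DN8109_c0_g1 in TPM had a median of 21.6 over the libraries and ran between 8.71 in CK (-4.1 ℃) replicate 3 and 49.0. By group median it was 26.4, 19.4, 20.7 and 38.9 in ABA-100 at 10.2, -4.1, -5.3 and 9.7 ℃, and 45.6, 19.7, 17.1 and 25.9 in CK at the same stages. These medians were lowest at the freezing stages in both treatments, and the libraries overlapped in part. In CK every ratio at 10.2 ℃ was 26.5 or more, above the highest at -4.1 ℃ (21.4) and -5.3 ℃ (20.4). At 9.7 ℃ the CK ratios ran between 13.1 and 27.4 and overlapped both freezing stages. In ABA-100 every ratio at 9.7 ℃ was 30.2 or more, above the highest at -4.1 ℃ (21.3) and -5.3 ℃ (21.9). The lowest ABA-100 ratio at 10.2 ℃ was 21.7, above all at -4.1 ℃ but not all at -5.3 ℃.

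MEbrown had 2 other annotated hubs, DN5170_c1_g1, annotated as a DNA-binding regulator of transcription, and DN7864_c0_g1, an NAD(P)H oxidoreductase that is also placed in the membrane. All 4 hubs had their highest mean in CK (-5.3 ℃) and their lowest in ABA-100 (10.2 ℃). DN5170_c1_g1 averaged 5.36 ± 0.170 TPM in ABA-100 (10.2 ℃) and 26.7 ± 4.51 TPM in CK (-5.3 ℃), and DN7864_c0_g1 averaged 2.94 ± 0.291 and 9.55 ± 1.95 TPM in the same groups (SD, n = 3 each). DN5170_c1_g1 correlated with DN7698_c0_g1 at r = 0.93 and with DN8109_c0_g1 at r = 0.87, and DN7864_c0_g1 at r = 0.82 and r = 0.88. All were chosen as hubs of one module built over these libraries, so their shared pattern is a description. DN5170_c1_g1 was called in the same 3 contrasts as DN7698_c0_g1, each of which includes the ABA-100 (10.2 ℃) libraries. Its log2 fold change was -1.26 (adjusted p = 0.00244) for ABA-100 over CK at 10.2 ℃, 1.26 (adjusted p = 0.00375) for 9.7 ℃ over 10.2 ℃ in ABA-100, and 1.89 (adjusted p = 0.00305) for the interaction. DN7864_c0_g1 was called in none, with -0.38 (adjusted p = 0.308) at 10.2 ℃.

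**Figure D4:**
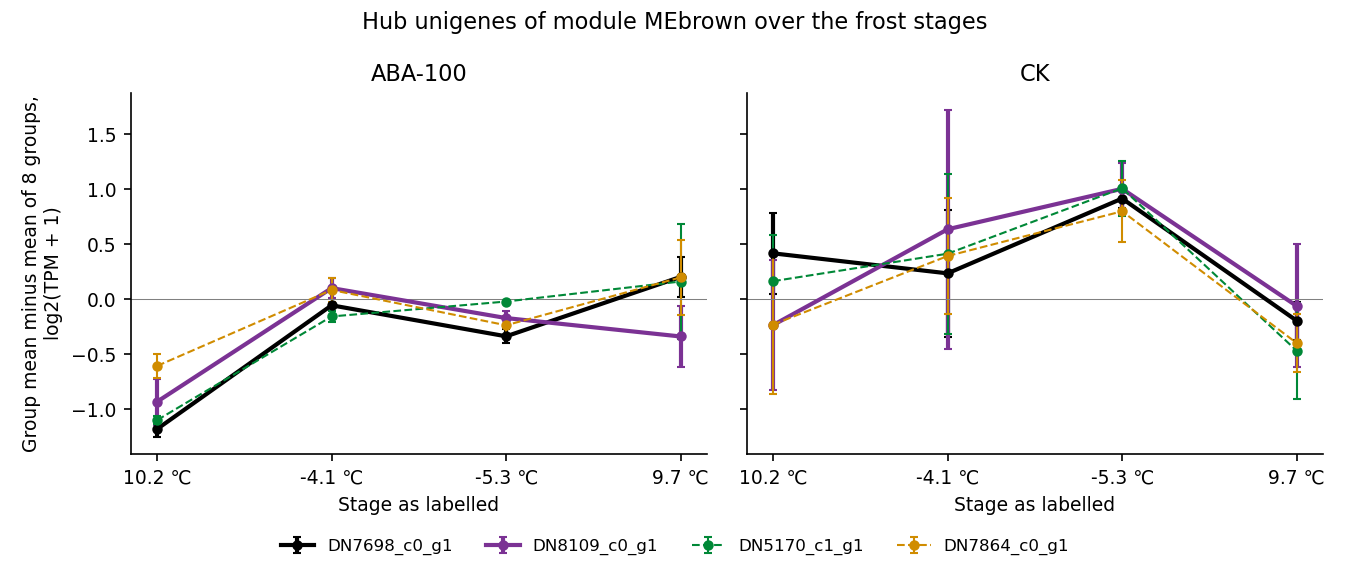
Group means of the 4 annotated MEbrown hubs over the stages in ABA-100 and CK, as log2(TPM + 1) minus each unigene's mean over the 8 groups, with bars for the SD (n = 3). All 4 are lowest in ABA-100 at 10.2 ℃ and highest in CK at -5.3 ℃.

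The other 4 hubs with a membrane annotation came from several modules and did not move one way. Beside DN7864_c0_g1 these were DN3958_c0_g1, a ferrochelatase of haem synthesis, DN8005_c0_g2, annotated to sphingolipid metabolism, and DN3196_c0_g1, a mitogen-activated protein kinase kinase kinase. At 10.2 ℃ 2 of the 4 were called higher in ABA-100 than in CK, where 3.33% of all tested unigenes were, and none was called lower: DN3958_c0_g1 by a log2 fold change of 1.27 (adjusted p = 1.45e-09) and DN8005_c0_g2 by 1.19 (adjusted p = 8.91e-07). DN3196_c0_g1 had -0.54 (adjusted p = 0.0284), short of the fold threshold, with all ABA-100 libraries below CK. At 9.7 ℃ DN3958_c0_g1 and DN8005_c0_g2 were again called higher, by 1.57 and 1.52, beside 3.59% of all tested. The median over the 4, whose values at 10.2 ℃ had both signs, was 0.41 at 10.2 ℃ and 1.06 at 9.7 ℃, beside -1.15 and 0.06 over DN7698_c0_g1 and DN8109_c0_g1. None of the 4 was called between stages within a treatment or for the interaction. The hubs of the modules MEturquoise and MEgrey correlated with the 2 unigenes between -0.29 and 0.47.

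The unigenes whose pattern was most like these 2 were not annotated hubs. The 5 nearest to DN7698_c0_g1 by Pearson r over 24 libraries were DN777_c0_g1 (r = 0.95), DN2313_c0_g1 (0.95), DN3106_c0_g1 (0.95), DN15293_c0_g1 (0.94) and DN24882_c1_g1 (0.94). Their mean levels ran between 60.8 TPM for DN777_c0_g1 and 1715 TPM for DN24882_c1_g1. The 5 nearest to DN8109_c0_g1 were DN5058_c1_g1 (r = 0.93), DN3060_c5_g1 (0.93), DN9100_c0_g1 (0.93), DN2636_c0_g1 (0.92) and DN15851_c0_g1 (0.92). Of these, DN15851_c0_g1 was as low as DN8109_c0_g1, at a mean of 2.34 TPM, and DN3060_c5_g1 averaged 845 TPM. No unigene was among the nearest 5 of both, and the files give none of them a name. The choice of nearest unigenes depended on the measure, since by Spearman rho 0 of the 5 for DN7698_c0_g1 and 3 of the 5 for DN8109_c0_g1 were again among the nearest, and over group means 0 of either. Above r = 0.8 there were 761 unigenes for DN7698_c0_g1 and 191 for DN8109_c0_g1, leaving out the 2 themselves. The 88 in common were 11.6% of the first list and 46.1% of the second.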

How the data were processed

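The deposited values are TPM per unigene, which the authors computed after assembling the reads de novo and quantifying each of 24 libraries. Read counts per unigene were not used here, so counting intervals and a count test are not given. TPM were taken as log2(TPM + 1), the 21523 unigenes that reached 1 TPM in 3 or more libraries were kept, and limma 3.58.1 (R 4.3.3) with a mean-variance trend was fitted to all 24 libraries by group, with Benjamini-Hochberg adjustment over all tested unigenes. The 2 unigenes and the lists were chosen with earlier results of these data known. Named unigenes were the 2, the other annotated hubs and the 5 nearest by Pearson r. The study calls the 3 libraries of a group biological replicates, but the labels do not name plants, so p-values measure only the spread between these libraries. Alternatives were other pseudocounts, filters and scalings, each library left out, a replicate block, only the libraries compared, and, chosen after seeing the data, averaging the closest pair or leaving out the library apart. The study took leaves of different stages from the same seedlings, but no label ties a replicate number to a seedling, so numbers were not taken to pair libraries.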

Additional observations from a re-analysis of the deposited data

Results flagged for a closer look

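The difference between the groups labelled ABA-100 and CK in DN7698_c0_g1 was not the same at all stages. By the sampling scheme and the titles, the 10.2 ℃ leaves preceded the spray, so this is not read as a changed response to it. The ABA-100 minus CK difference at 9.7 ℃ less that at 10.2 ℃ was 1.996 on the log2 scale, by a test of the difference itself. All libraries entered the network that picked the hubs, so that test is not independent of the choice either. The difference at 9.7 ℃ less that at -5.3 ℃ was 1.65, because every ABA-100 library lay above CK at 9.7 ℃ and below it at -5.3 ℃, and this was not tested because the freezing stages were used to choose the unigene. Read the other way, the change at 9.7 ℃ over -5.3 ℃ was 0.54 in ABA-100 and -1.11 in CK, which have opposite signs and differ by the same 1.65, also not tested.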

How the results depend on the processing

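Over the 10 member results of the tests, 182 alternative values were computed and 179 kept their direction and their side of the threshold. The 3 others were reversed signs of uncalled DN8109_c0_g1 results when 1 library was left out: the ABA-100 over CK log2 fold change at 9.7 ℃ ran between -0.45 and 0.0452 (0.0452 without CK (9.7 ℃) replicate 3), and 9.7 ℃ over 10.2 ℃ in CK between -0.15 (without CK (9.7 ℃) replicate 3) and 0.52, with -0.01 without CK (10.2 ℃) replicate 1. With each library of the compared groups left out in turn, the called values of DN7698_c0_g1 ran between -1.71 and -1.39 at 10.2 ℃, between 1.28 and 1.44 within ABA-100 and between 1.78 and 2.11 for the interaction. Over all alternatives they ran between -1.72 and -1.35, between 1.19 and 1.45, and between 1.75 and 2.12. With 1 library left out, the uncalled values of DN8109_c0_g1 ran between -0.88 and -0.36 at 10.2 ℃ (-0.36 without CK (10.2 ℃) replicate 3), between 0.44 and 0.68 within ABA-100 and between 0.08 and 0.74 for the interaction. Over all alternatives those of DN8109_c0_g1 ran between -1.11 and -0.28 at 10.2 ℃ and between 0.22 and 0.996 within ABA-100. Short of the fold threshold, DN7698_c0_g1 for 9.7 ℃ over 10.2 ℃ in CK had adjusted p 0.0366 (quantile normalization) and 0.0404 (10 TPM filter). Leaving out the library apart shrank the SE by selection, so its adjusted p-values are not read as evidence. There DN7698_c0_g1 for the same contrast and at 9.7 ℃, and DN8109_c0_g1 at 10.2 ℃ and within ABA-100, fell under 0.05 but uncalled. The replicate block changed no call of either unigene and gave 1068 called unigenes at 10.2 ℃ against 1064 without it, while same-numbered libraries had a median correlation of 0.0019, with 7 of 84 pairs above 0.1 and a highest of 0.285, against 1 of 168 pairs with different numbers.

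The number of called unigenes moved more, and the cause was not tested. It was 1064 at 10.2 ℃, 863 at 9.7 ℃, 214 in CK, 575 in ABA-100 and 977 for the interaction. A pseudocount of 0.1 gave 1599 at 10.2 ℃, 359 in CK and 902 in ABA-100, and a pseudocount of 5 gave 418, 352, 75, 161 and 338 in the same order as the main counts. A filter at 10 TPM gave 652 at 10.2 ℃, 570 at 9.7 ℃, 295 in ABA-100 and 521 for the interaction. Only the libraries compared gave 120 in CK. Averaging the closest pair, chosen after seeing the data, gave 100 in CK and 640 for the interaction. Median-of-ratios scaling gave 857 higher and 240 lower at 10.2 ℃, against 717 and 347, 240 and 238 within ABA-100, against 382 and 193, and 411 and 396 for the interaction, against 707 and 270. Quantile normalization gave 594 higher and 155 lower at 9.7 ℃, against 772 and 91, 217 and 255 within ABA-100, and 377 and 417 for the interaction. At -5.3 ℃ the described log2 fold change of DN7698_c0_g1 was -1.07 with median-of-ratios and -1.12 with quantile scaling, and that of DN8109_c0_g1 was -1.002 with quantile scaling, -1.46 with a pseudocount of 0.1 and -0.64 with a pseudocount of 5.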

Other observations

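The unigenes that ran most opposite to the pair over the 24 libraries, picked after their values were seen, were DN5101_c0_g1 for DN7698_c0_g1 (r = -0.92) and DN5616_c0_g1 for DN8109_c0_g1 (r = -0.94). DN5101_c0_g1 averaged 86.9 ± 3.70 TPM in ABA-100 (10.2 ℃) and 49.0 ± 4.90 TPM in CK (-5.3 ℃), and DN5616_c0_g1 averaged 5.68 ± 0.516 TPM in ABA-100 (10.2 ℃) and 2.11 ± 0.427 TPM in CK (-5.3 ℃) (SD, n = 3 each). Each was also opposite to the other member of the pair, at r = -0.74 for DN5101_c0_g1 and r = -0.73 for DN5616_c0_g1. The files name neither.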
